A study of Mus musculus with 6 samples.

Results

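mmu-miR-155-5p, mmu-miR-146a-5p and mmu-miR-146b-5p are macrophage activation miRNAs, and they are 3 of the 598 miRNA names counted in exosomes of RAW264.7 cells, an established mouse macrophage line of wild type genotype. They were chosen by their known link to inflammatory activation and also selected on the comparison described here, since a lower mmu-miR-155-5p count in exosomes of M2 cells had already been seen in these libraries. Their values in M0-exo and M2-exo are therefore given as a description, without a test, and support nothing further. Exosomes were isolated by ultracentrifugation from the serum-free supernatant of untreated cells (M0-exo, n = 3) or of cells given IL-4 and IL-13, each at 20 ng/mL, for 24 h before the change to serum-free medium (M2-exo, n = 3). All 6 libraries carry the batch label 1 and come from 1 cell line. The labels do not say whether the libraries came from separate cultures, so the spread between them may be technical. The p-values and standard errors from edgeR rest on that spread as fitted over all names, not on each miRNA's own spread.

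miR-155 is processed from the transcript of its host gene, which macrophages induce through Toll-like receptor and NF-κB signalling, and it is known to repress inhibitors of cytokine and phosphoinositide signalling. miR-146a is induced by the same pathway and is known to repress adaptor and kinase genes upstream of NF-κB, which makes it a classical negative feedback miRNA. miR-146b comes from a different locus but carries the same seed, so both miR-146 miRNAs can pair with the same sites.

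The mature sequences are shown because the seed, bases 2 to 8, groups the 3 miRNAs and because the reads of the miR-146 miRNAs can be told apart only near the 3′ end. They were read from the deposited table, match the RefSeq entries of GRCm38.p6 for 3 of 3 names, and have the seed in capitals.
mmu-miR-155-5p: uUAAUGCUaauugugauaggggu
mmu-miR-146a-5p: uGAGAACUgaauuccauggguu
mmu-miR-146b-5p: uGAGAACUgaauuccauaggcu
The seed of the miR-146 miRNAs occurred in 2 names of the table, namely these, and the seed of mmu-miR-155-5p in 1 name. Counted from 1 at the 5′ end, mmu-miR-146a-5p and mmu-miR-146b-5p share their leading 17 bases and differ by G18A and U21C. A read that ends at base 17 or before cannot be assigned to either of them, and how such reads were counted is not given in the sources used here.

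The 3 miRNAs lie on different chromosomes. On GRCm38.p6, mmu-miR-155-5p lies at chr16:84714143-84714165 on the plus strand, in the Mir155 hairpin, inside exon 2 of 2 of the noncoding gene Mir155hg. mmu-miR-146a-5p lies at chr11:43374435-43374456 on the minus strand, in the Mir146 hairpin, where GENCODE M21 annotates no other gene on that strand. mmu-miR-146b-5p lies at chr19:46342790-46342811 on the plus strand, in the Mir146b hairpin, within the protein-coding gene Mfsd13a and outside its annotated exons. Coordinates are not part of the deposited table, whose processing notes from the submitters name mm39, so these positions belong to the annotation and not to the deposited counts. The opposite arms of the hairpins, mmu-miR-155-3p, mmu-miR-146a-3p and mmu-miR-146b-3p, have no row in the table, and no value is given for them.

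Seed matches in 3′UTRs of 5 genes known in these pathways were searched as a description of what the seeds can pair with, and no mRNA was measured in these exosomes. Socs1, an inhibitor of cytokine receptor signalling, and Inpp5d, a phosphatase that restrains phosphoinositide signalling, each held 1 match to the mmu-miR-155-5p seed (AGCATTA). Traf6, an adaptor of Toll-like and IL-1 receptors, held 4 matches to the miR-146 seed (AGTTCTC), and Irak1, a kinase of the same receptors, held 2. Il13ra1, a subunit of the IL-13 receptor, held none of the letters of the mmu-miR-155-5p match in its 3′UTR of 2353 bases. The sites in Socs1 and Inpp5d, the pair in Irak1 and the one nearest the start of the 3′UTR in Traf6 are printed with the match in capitals.
Socs1, chr16:10784207-10784213, minus strand, exon 2 of 2: cgctgtgccgcAGCATTAagtgggggcgc
Inpp5d, chr1:87719838-87719844, plus strand, exon 27 of 27: tgtttttaaaaAGCATTAaagaaaaccat
Traf6, chr2:101697959-101697965, plus strand, exon 8 of 8: ctctggtgttgAGTTCTCatttagttgac
Irak1, chrX:74015394-74015400, minus strand, exon 14 of 14: tcagaggtcaaAGTTCTCatgcttggaag
Irak1, chrX:74015378-74015384, minus strand, exon 14 of 14: tcatgcttggaAGTTCTCatagtgtgcaa
An A follows each match, so all are full matches with an A opposite base 1 of the miRNA. Such letters are common. Of genes whose 3′UTR had 0.8 to 1.25 times the length of the one searched, 11.4% held the mmu-miR-155-5p match for Socs1, 5.93% for Inpp5d and 12.8% for Il13ra1. The corresponding shares for the miR-146 match were 31.8% for Traf6 and 11.8% for Irak1.

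Replicates 1, 2 and 3 of M0-exo held 1453348, 1155464 and 863194 counts in total, and those of M2-exo 937317, 860204 and 969974. The 3 miRNAs took a small part of them, with 3809 counts in all for mmu-miR-155-5p, 767 for mmu-miR-146b-5p and 407 for mmu-miR-146a-5p, so counting error weighs most on mmu-miR-146a-5p. M2-exo replicate 3 stood apart from the other libraries by its liver miRNA, miR-122-5p, with 2184 counts against 51 to 137 elsewhere. The number of miRNAs at 1 or 2 counts also moved with the group (11 to 17 in M0-exo, 56 to 79 in M2-exo), and its part in the values below was not tested. Because each library holds RNA of many vesicles, fewer vesicles carrying a miRNA and fewer copies per vesicle cannot be told apart.

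mmu-miR-155-5p, the activation-induced member, was the most abundant of the 3 and stood lower in each M2-exo library than in each M0-exo library. Its counts were 1312, 898 and 657 in M0-exo replicates 1, 2 and 3 and 301, 334 and 307 in M2-exo. After scaling by TMM (trimmed mean of M-values, which sets libraries to a common level), these corresponded to 840.0, 717 and 706 CPM (counts scaled to a common total of 1000000) in M0-exo and to 352, 400.4 and 351 CPM in M2-exo. The groups did not overlap, and the lowest M0-exo library lay well above the highest M2-exo library. The means were 754 ± 74.2 CPM and 368 ± 28.1 CPM (SD, n = 3 each), a level 2.05-fold lower in M2-exo, and the log2 fold change was -1.04 with a standard error of 0.15. By count the miRNA ranked 48, 57 and 59 among the names of the M0-exo replicates, and 76, 72 and 74 among those of M2-exo. Its spread between M0-exo replicates was above counting error (chi-square of 9.70 per degree of freedom), mostly through the high replicate 1, against 1.81 in M2-exo. The 95% exact binomial interval, which covers counting error only, was 704 to 822 unscaled CPM for M0-exo replicate 3 and 348 to 432 for M2-exo replicate 2, the libraries of the 2 groups nearest to each other.

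mmu-miR-146a-5p, the feedback member, stood lower in M2-exo by a smaller factor and with far fewer counts. M0-exo replicates 1, 2 and 3 held 105, 94 and 77 of its counts, against 33, 44 and 54 in those of M2-exo. The TMM-scaled levels were 67.2, 75.1 and 82.8 CPM in M0-exo against 38.6, 52.7 and 61.8 CPM in M2-exo. The groups did not overlap, but M2-exo replicate 3 came close to M0-exo replicate 1. The mean was 75.0 ± 7.78 CPM in M0-exo against 51.0 ± 11.7 CPM in M2-exo (SD, n = 3 each), 1.47-fold apart, and the log2 fold change of -0.55 had a standard error of 0.35. In unscaled CPM the exact 95% interval of M2-exo replicate 3 (41.8 to 72.6) overlapped that of M0-exo replicate 1 (59.1 to 87.5). These intervals cover counting error only, and their overlap does not decide whether the 2 libraries differ.

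mmu-miR-146b-5p, which carries the same seed as mmu-miR-146a-5p, had a higher mean in M2-exo than in M0-exo, with overlapping groups. Its counts were 142, 140 and 118 in M0-exo replicates 1, 2 and 3 and 99, 118 and 150 in M2-exo. On the TMM scale it stood at 90.9, 112 and 127 CPM in M0-exo and at 116, 141 and 172 CPM in M2-exo. The groups overlapped, with M2-exo replicate 1 inside the M0-exo range and the other M2-exo libraries above it. The means were 109.9 ± 18.1 CPM (SD, n = 3) and 143 ± 27.9 CPM (SD, n = 3), and the log2 fold change was 0.38 with a standard error of 0.25. This value depended on the setting, at 0.16 with library totals alone, 0.19 with an offset for G and C content and 0.23 without M2-exo replicate 3. Thus every M2-exo library lay below every M0-exo library for 2 of the 3 miRNAs, and the same held for 57 of all 598 names (9.53%). Since the members were selected on this comparison, nothing is read from that count.

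**Figure D1:**
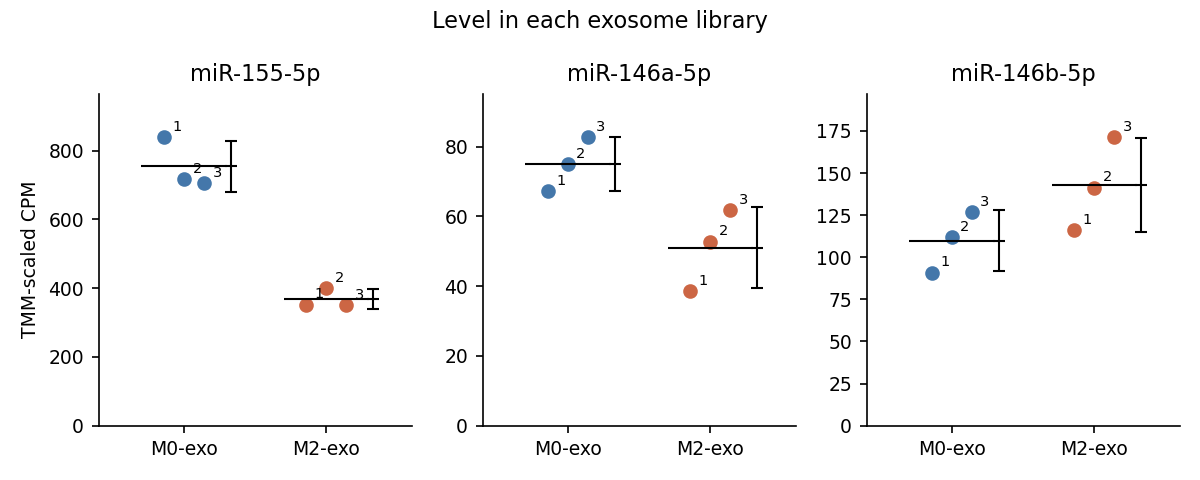
TMM-scaled CPM (y axes, from 0) of the 3 miRNAs in each M0-exo and M2-exo library. Points are libraries with their replicate number, the long line is the group mean and the bar beside it spans 1 SD to each side (n = 3). mmu-miR-155-5p and mmu-miR-146a-5p do not overlap between the groups, and mmu-miR-146b-5p does.

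By mean level over the 6 libraries the order was mmu-miR-155-5p (561 CPM, rank 64 of 598), mmu-miR-146b-5p (126 CPM, rank 104) and mmu-miR-146a-5p (63.0 CPM, rank 127). The ranges of mmu-miR-146b-5p and mmu-miR-146a-5p did not overlap within either group, so that order held in each library. The names next to mmu-miR-155-5p were miR-15b-5p (630.2 CPM) and miR-744-5p (618 CPM) above and miR-222-5p (522 CPM) and miR-30e-3p (492 CPM) below. That place held in neither group, as mmu-miR-155-5p lay above the means of all 4 in M0-exo (465 to 717 CPM) and below them in M2-exo (391 to 747 CPM). mmu-miR-146b-5p lay between miR-30c-5p and miR-193a-5p (143 and 132 CPM) and miR-378c and miR-126a-3p (124 and 116 CPM). By group means that place held in M0-exo but not in M2-exo. There mmu-miR-146b-5p, at a mean of 143 CPM, lay above miR-193a-5p (97.4 CPM) and below miR-378c (147 CPM). mmu-miR-146a-5p lay between miR-142a-5p and miR-186-5p (68.3 and 63.9 CPM) and miR-365-3p and miR-5114 (62.6 and 62.0 CPM). The means of the last 4 of these neighbours over the 6 libraries differed from that of mmu-miR-146a-5p by less than its SD in either group, but its own mean lay above theirs in M0-exo and below theirs in M2-exo.

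**Figure D2:**
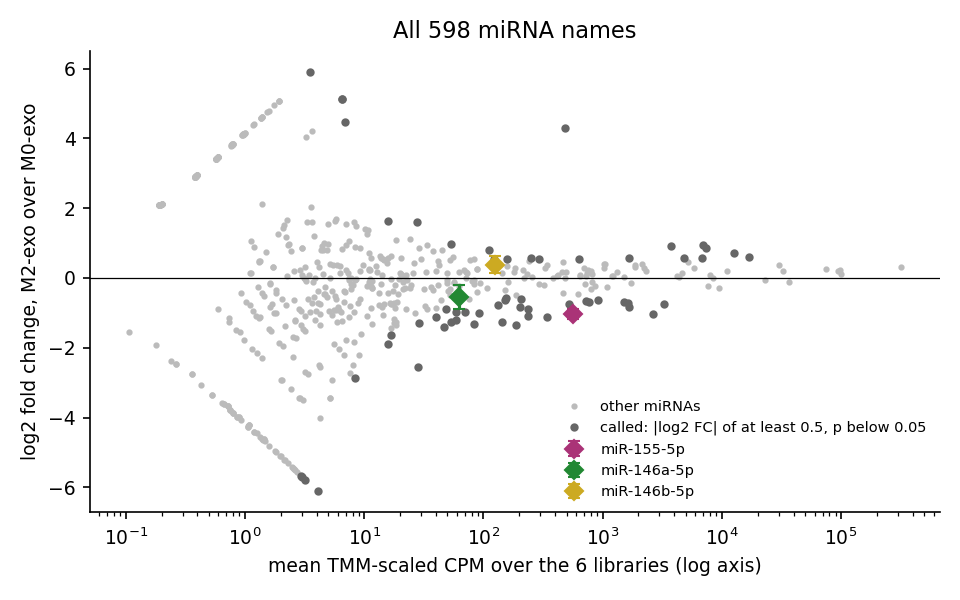
log2 fold change of M2-exo over M0-exo (y axis) against the mean TMM-scaled CPM over the 6 libraries (x axis, log scale) for the 598 miRNA names. Dark points had a log2 fold change of 0.5 or more in size and a p-value below 0.05 in edgeR's test, diamonds are the 3 members with bars of 1 standard error, and the slanted rows of points at low levels are names with 0 counts in a group. The members lie at -1.04, -0.55 and 0.38, and since they were selected on this comparison nothing is read from their place among the names.

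Since both miR-146 miRNAs were counted in the same library, the share of mmu-miR-146a-5p among their reads does not depend on the scaling between libraries. It was 42.5%, 40.2% and 39.5% in M0-exo replicates 1, 2 and 3 and 25.0%, 27.2% and 26.5% in M2-exo. The exact 95% intervals ran from 32.6% at the lowest to 48.9% at the highest in M0-exo and from 17.9% to 34.7% in M2-exo, so single libraries overlapped in their intervals although the observed shares of the groups did not. The mean share was 40.7% ± 1.58 (SD, n = 3) in M0-exo against 26.2% ± 1.10 (SD, n = 3) in M2-exo, 14.5 percentage points apart. This share comes from the same comparison by which the members were chosen and was not tested.

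The library lowest in mmu-miR-146a-5p was also the lowest in mmu-miR-146b-5p in both groups, and likewise the highest. The level of mmu-miR-146b-5p differed 1.40-fold between the lowest and highest M0-exo library and 1.48-fold in M2-exo, and the share of mmu-miR-146a-5p ranged over 3.02 and 2.16 percentage points. The chi-square per degree of freedom between replicates was 0.98 in M0-exo and 2.29 in M2-exo for mmu-miR-146a-5p, and 3.745 and 4.68 for mmu-miR-146b-5p. The spread of mmu-miR-146a-5p in M0-exo was thus no larger than counting error, and an order of 3 libraries is a description only. Summed, both miR-146 miRNAs stood at 158, 187 and 209.7 CPM in M0-exo and at 154, 194 and 233 CPM in M2-exo. The summed means of 185 ± 25.8 CPM and 194 ± 39.4 CPM (SD, n = 3 each) differed by less than the spread between replicates. Their order depended on the scaling, as with library totals alone they were 199.5 ± 28.1 CPM in M0-exo against 179.8 ± 35.5 CPM in M2-exo, and the groups overlapped on both scales.

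The reads of mmu-miR-155-5p per miR-146 read were also formed within each library, as a ratio of reads and not of molecules. There were 5.31, 3.84 and 3.37 reads of mmu-miR-155-5p per miR-146 read in M0-exo replicates 1, 2 and 3 and 2.28, 2.06 and 1.505 in M2-exo. The mean ratio was 4.17 ± 1.01 (SD, n = 3) in M0-exo against 1.95 ± 0.40 (SD, n = 3) in M2-exo, and the groups did not overlap. Against mmu-miR-146b-5p alone the ratio was 7.07 ± 1.92 in M0-exo against 2.64 ± 0.52 in M2-exo (SD, n = 3 each), also without overlap. Against mmu-miR-146a-5p alone, which was itself lower in M2-exo, it was 10.2 ± 2.06 and 7.47 ± 1.72, and the groups overlapped.

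**Figure D3:**
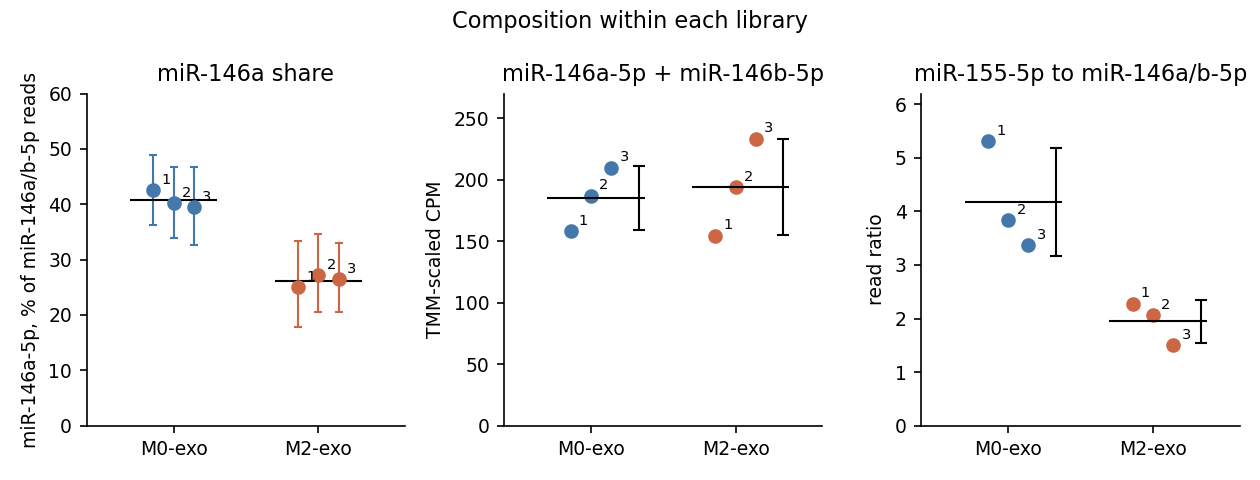
Left, share of mmu-miR-146a-5p among the reads of mmu-miR-146a-5p and mmu-miR-146b-5p (%, with exact 95% binomial intervals); middle, their summed TMM-scaled CPM; right, reads of mmu-miR-155-5p per miR-146 read. Points are libraries with their replicate number, long lines are group means and, in the middle and right panels, bars span 1 SD to each side (n = 3). The share is about 40.7% in M0-exo against 26.2% in M2-exo, the sums overlap, and the ratio is lower in each M2-exo library.

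Base composition moved with the fold change in these libraries. Over the 241 names with a mean of at least 10 counts, the correlation of the G and C content with the log2 fold change was -0.37 (Pearson's r across miRNAs, which are not independent replicates). The median log2 fold change was 0.25 for the 43 names below 42% G and C, 0.04 for the 113 names from 42% to below 58% and -0.42 for the 85 names at 58% or more. The 3 members belong to the low class, with 34.8% for mmu-miR-155-5p and 40.9% for each miR-146 miRNA. Of the 43 names in that class, 3 had a log2 fold change of -0.5 or below, namely mmu-miR-155-5p, miR-221-5p (-0.99) and mmu-miR-146a-5p, and miR-221-5p is named here after its value was seen. The same held for 20 of the 113 names of the middle class, 39 of the 85 of the high class and 62 of the 241 in all. Since mmu-miR-155-5p and mmu-miR-146a-5p were selected on this comparison, nothing is read from their place among the 3. With an offset for G and C content, the log2 fold changes were -1.30 for mmu-miR-155-5p, -0.75 for mmu-miR-146a-5p and 0.19 for mmu-miR-146b-5p. The part of base composition in these values was not tested further.

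**Figure D4:**
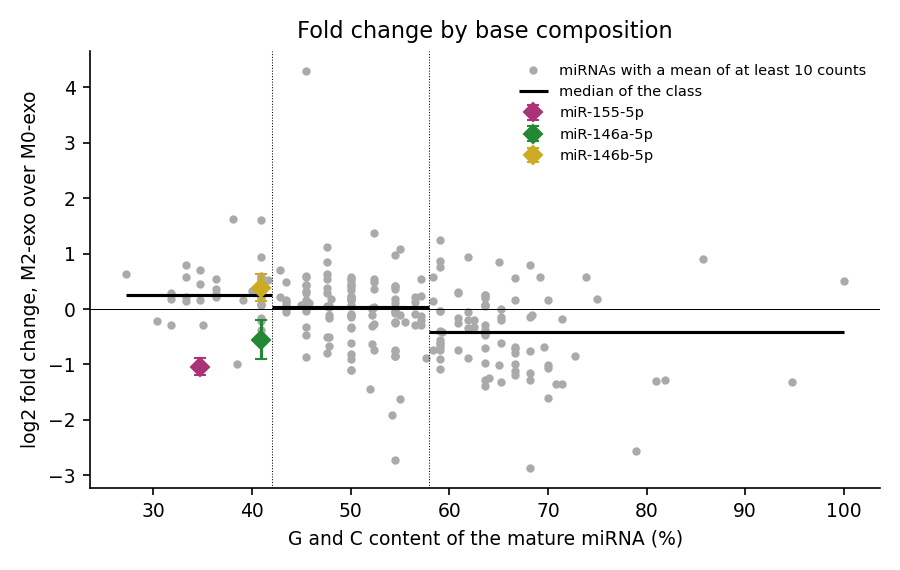
log2 fold change of M2-exo over M0-exo (y axis) against the G and C content of the mature miRNA in percent (x axis) for the 241 names with a mean of at least 10 counts. Dotted lines mark 42% and 58%, thick lines are the class medians of 0.25, 0.04 and -0.42, and diamonds are the members with bars of 1 standard error. The medians are lower in the classes of higher G and C content.

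The signs of the 3 log2 fold changes were the same in the reported fit and in each of 13 alternative fits. Library totals alone moved the median log2 fold change of all names from 0.03 to -0.18, and the fitted values there were -1.25 for mmu-miR-155-5p, -0.77 for mmu-miR-146a-5p and 0.16 (standard error 0.26) for mmu-miR-146b-5p. Relative to that median they were -1.07, -0.59 and 0.34. Without M2-exo replicate 3, the library high in miR-122-5p, the log2 fold changes were -1.004, -0.71 and 0.23, and the share of mmu-miR-146a-5p differed by 14.6 percentage points.

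**Figure D5:**
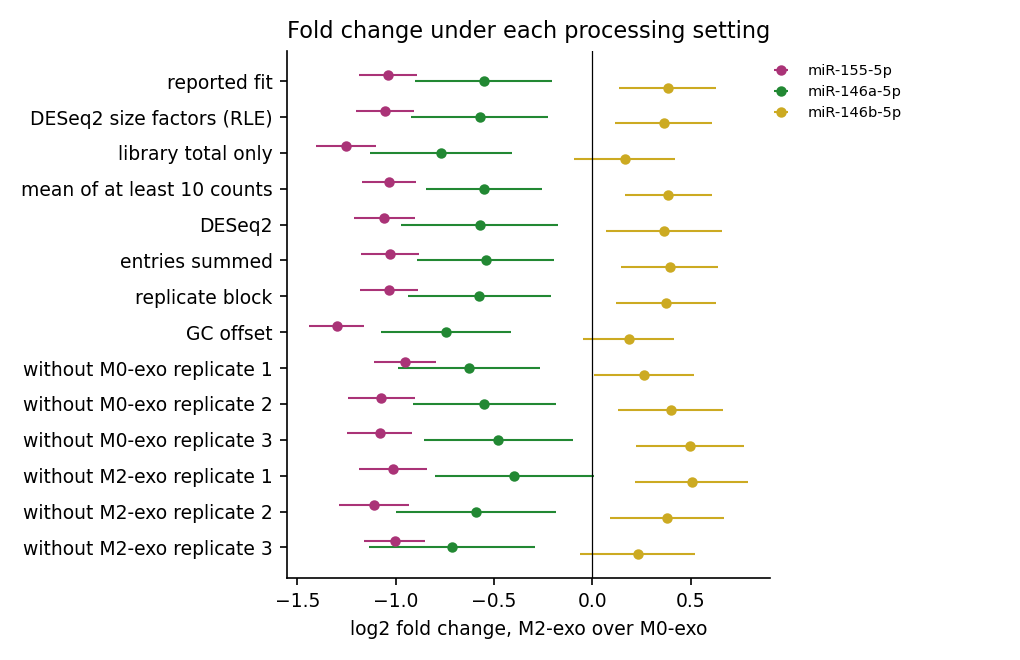
log2 fold change of M2-exo over M0-exo (x axis) of the 3 miRNAs in the reported fit and in 13 alternative fits (y axis), with bars of 1 standard error. mmu-miR-155-5p ranges from -1.30 to -0.95, mmu-miR-146a-5p from -0.77 to -0.40 and mmu-miR-146b-5p from 0.16 to 0.505.

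The miRNAs with the most similar levels over the 6 libraries were found by Pearson's r of log2(CPM + 1) among the 241 names. The libraries fall into 2 groups, so for a miRNA that differs between them r mostly follows that difference, and no p-value is given. For mmu-miR-155-5p these were miR-1249-5p (r = 0.964), miR-25-5p (0.952) and miR-326-5p (0.949), whose mean levels were 203 and 85.4, 1106 and 721, and 272 and 106 CPM in M0-exo and M2-exo. For mmu-miR-146a-5p they were miR-504-3p (r = 0.948), miR-6983-5p (0.940) and miR-193a-5p (0.906). For mmu-miR-146b-5p they were miR-139-5p (r = 0.928), miR-103-3p (0.894) and miR-20a-5p (0.837), with log2 fold changes of 0.19, 0.04 and 0.16, all below 0 with library totals alone (-0.03, -0.18 and -0.06) and the last 2 also with the offset for G and C content (-0.01 and -0.05). The names most like mmu-miR-155-5p held between 59.1% and 70.8% G and C, far above its own 34.8%.

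Other miRNAs linked to Toll-like receptor and NF-κB signalling in macrophages were called in both directions, and the balance depended on the scaling. They were listed with earlier results of these data known. The study's authors had picked miR-223-3p and miR-212-3p, both listed, for qRT-PCR among miRNAs with high fold changes in these libraries. The share of the list that was called is therefore a description only. Of 15 listed miRNAs, 14 were in the table (miR-147-3p had no row), and 4 of the 14 (28.6%) were called in edgeR's test (a log2 fold change of 0.5 or more in size with an unadjusted p-value below 0.05), 3 higher and 1 lower in M2-exo. Over all 598 names 60 were called (10%), 22 higher and 38 lower. The higher ones were miR-21a-5p, a miRNA induced during inflammation, with 235 ± 85.1 CPM in M0-exo against 346 ± 42.8 CPM in M2-exo (SD, n = 3 each), miR-27b-3p, with 129 ± 27.6 and 187 ± 39.9 CPM, and the myeloid miR-223-3p, with 24, 21 and 8 counts against 41, 38 and 28. The lower one was miR-222-3p, with 185 ± 57.6 CPM in M0-exo against 119.7 ± 27.3 CPM in M2-exo. The groups of miR-21a-5p and miR-222-3p overlapped, and those of miR-27b-3p and miR-223-3p did not. With Benjamini-Hochberg adjustment over all names, 2 of the 14 had an adjusted p-value below 0.05, against 53 of 598 (8.86%), namely miR-21a-5p (log2 fold change 0.55, standard error 0.18, adjusted p = 0.0258 from edgeR) and miR-125b-5p (0.39, standard error 0.12, adjusted p = 0.0226 from edgeR). The adjusted p-values were 0.0583 for miR-223-3p, 0.0596 for miR-222-3p and 0.137 for miR-27b-3p, all from edgeR. All 4 calls fell among the 9 listed names with a mean of at least 10 counts. Of the 241 such names in the table, 18 were called higher and 34 lower.

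The median log2 fold change of the 9 listed names with a mean of at least 10 counts was 0.24, against -0.01 for the 241 such names of the table, and with library totals alone these medians were 0.02 and -0.22. Among those not passing, miR-187-3p, known as an IL-10-induced miRNA, stood at 54.2 ± 10.3 CPM in M0-exo against 34.8 ± 13.1 CPM in M2-exo (SD, n = 3 each, adjusted p = 0.502 from edgeR). miR-221-3p, miR-125a-5p and let-7e-5p had log2 fold changes of -0.17, 0.24 and 0.07, and that of let-7e-5p was below 0 with library totals alone (-0.15) and with the offset for G and C content (-0.11). The remaining 5 names, miR-9-5p, miR-9-3p, miR-132-3p, miR-181c-5p and miR-212-3p, had at most 12 counts in any library and were not called in the reported fit. DESeq2 also called 4 of the list, with miR-212-3p (0, 1 and 0 against 10, 4 and 4 counts) in place of miR-27b-3p. The count of 4 from edgeR rested on single libraries, as it was 5 without M0-exo replicate 2, with miR-212-3p added, 1 without M0-exo replicate 3 (miR-223-3p) and 2 without M2-exo replicate 3 (miR-222-3p and miR-223-3p). It was also 2, the same pair, with the offset for G and C content, so that 1 was higher and 1 lower in both of the last settings. With library totals alone 3 were called, miR-223-3p higher and miR-222-3p and miR-187-3p lower, and miR-21a-5p and miR-125b-5p were no longer below 0.05 in edgeR's adjusted p-value, whereas miR-222-3p was below it there and with DESeq2's size factors.

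Of 6 miRNAs linked to IL-4 and alternative activation, the state the cytokines induce, 4 were in the table, while miR-511-5p and miR-124-3p had no row. In edgeR's test 0 of the 4 passed the threshold, beside 60 of all 598 names (10%), and 2 had an unadjusted p-value below 0.05, beside 87 of 598 (14.5%). DESeq2 passed 0 with 1 such p-value. With 4 names, a count of 0 is near what the share over all names would give. let-7c-5p, the most abundant of them, was higher by a log2 value of 0.30 with a standard error of 0.05 (edgeR, adjusted p = 1.3e-06), under the threshold of 0.5 and higher in 3 of 3 M2-exo libraries than in each M0-exo library. Its size depended on the scaling. let-7c-5p took 30.55%, 31.1% and 30.9% of the counts in M0-exo replicates 1, 2 and 3, compared with 33.1%, 32.4% and 32.6% for M2-exo, and with library totals alone its log2 fold change was 0.08 (standard error 0.05), with no adjusted p-value below 0.05 from edgeR. With the offset for G and C content it was 0.12, also without one. miR-378a-3p stood at 298 ± 37.4 CPM in M0-exo against 384 ± 46.5 CPM in M2-exo (SD, n = 3 each, adjusted p = 0.242 from edgeR). Its opposite arm miR-378a-5p was counted 49, 38 and 21 times in M0-exo against 29, 68 and 25 times in M2-exo (adjusted p = 0.452 from edgeR) and passed the unadjusted threshold only without M2-exo replicate 3 and with the offset for G and C content. miR-511-3p was at 0 throughout M0-exo, where the floor of 3 counts lies between 1.92 and 3.23 scaled CPM, and reached 8, 1 and 1 counts in M2-exo. The median log2 fold change of the 3 listed names with a mean of at least 10 counts was 0.36, and 0.15 with library totals alone.

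The labelled cell type was checked against miRNA markers. The 4 myeloid markers were all in the table, with summed counts of 1455, 778 and 524 in M0-exo against 754, 811 and 1002 in M2-exo, and miR-142a-3p was the most abundant of them. Of the 4, 2 were called higher in M2-exo, miR-223-3p (log2 fold change 1.602) and miR-21a-5p (0.55), beside 10% of all names. The others, miR-142a-3p and miR-142a-5p (0.22), were not called, and 3 of the 4 had an unadjusted p-value below 0.05. Of the called pair, miR-21a-5p was not called with library totals alone or with the offset for G and C content. It was also not called without M0-exo replicate 3 or without M2-exo replicate 3. For miR-142a-3p the log2 fold change was 0.45 with a standard error of 0.15 (edgeR, adjusted p = 0.0408), and it was 0.23 with library totals alone and 0.19 with the offset for G and C content, where the adjusted p-value was no longer below 0.05. Markers of other cells were not absent, and the liver marker exceeded the myeloid markers in M2-exo replicate 3. The erythroid or serum markers gave 86, 138 and 84 summed counts for M0-exo, against 110, 59 and 101 for M2-exo, with miR-486a-5p leading 2 of 3 markers in the table and no row for miR-144-3p. The lymphocyte marker miR-150-5p was counted 40, 0 and 0 times in M0-exo against 4, 9 and 9 times in M2-exo. The epithelial markers (2 of 3 in the table, led by miR-200c-3p, with no row for miR-141-3p) gave 101, 79 and 27 summed counts for M0-exo, against 35, 40 and 50 for M2-exo. The muscle markers (1 of 3, miR-1a-3p, with no row for miR-133a-3p and miR-206-3p) and the neural markers (1 of 2, miR-9-5p) each summed to at most 12 counts in any library. The stromal markers (2 of 4, led by miR-143-3p) gave 31, 23 and 22 summed counts for M0-exo, against 37, 26 and 65 for M2-exo. Of these, miR-199a-3p moved with the group, at 1, 0 and 0 counts in M0-exo against 7, 7 and 19 in M2-exo (adjusted p = 0.0583 from edgeR), while miR-145a-5p and miR-214-3p had no row. The study's authors had also picked miR-199a-3p for qRT-PCR by its fold change in these libraries. The liver marker miR-122-5p was counted 63, 59 and 51 times in M0-exo against 137, 107 and 2184 times in M2-exo, so it also moved with the group. The part of these markers in the values of the 3 miRNAs was not tested beyond leaving out M2-exo replicate 3.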

How the data were processed

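The authors deposited, for 6 small RNA libraries, counts for each mature miRNA and precursor, with RPM values that equal each count over the library's sum of 638 entries, times 1000000 (tolerance 0.005). The RPM values were not used further. The aligner, counting tool and miRNA release are not given in the sources used here, and the submitters' processing notes name mm39. For each of 598 names the entry of highest total count was taken, and each member had a single entry. Members and lists were chosen with earlier results of these data known. Named miRNAs were the members, their opposite arms and seed relatives, the lists and markers, the 3 names most correlated with each member and the 2 next above and below it by level.

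Counts were fitted with edgeR 4.0.16 in R 4.3.3 (TMM, estimateDisp, glmQLFit, glmQLFTest, no covariates, no filter). The fit was run on simulated counts beforehand. Their dispersion was lower than the common dispersion of 0.4261 estimated here, so that run does not show how well the p-values hold in these data. The prior degrees of freedom were infinite, so each name took the quasi-dispersion fitted over all names for its abundance, and none from its own spread. Thresholds were an absolute log2 fold change of 0.5 and an unadjusted p-value of 0.05. Standard errors are the log2 coefficient over the root of the F statistic. Shares carry exact (Clopper-Pearson) 95% intervals for counting error only, and 3 counts were the floor. Alternatives were DESeq2 1.42.0 and its size factors, library totals, a mean of at least 10 counts, summed entries, a replicate block, a higher fold threshold and leaving out each library. The offset for G and C content, and leaving out libraries for the share of mmu-miR-146a-5p, were added after seeing the data. Seed matches were searched in the longest 3′UTR of each of 21005 genes of GENCODE M21 on GRCm38, with Python 3.11.15, and 8.28% held AGCATTA and 11.2% AGTTCTC. Figures were drawn with matplotlib 3.10.9.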

Additional observations from a re-analysis of the deposited data

How the results depend on the processing

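Of 14 alternatives, 13 were planned and 1, the offset for G and C content, was chosen after seeing the data, as was leaving out each library for the share of mmu-miR-146a-5p. The 60 calls over all names lay between 50 and 74 except for 27 (7 higher, 20 lower) at a fold threshold of 1 on the log2 scale, which is stricter by construction. Library totals alone gave 10 higher and 63 lower calls against 22 and 38. The log2 fold change of mmu-miR-155-5p was -1.25 with library totals. Relative to the median of all names it was -1.07 there, against -1.06 in the reported fit. With the offset it was -1.30, and the cause of that move was not tested. Across the fits leaving out 1 library each, the log2 fold change of mmu-miR-155-5p ran from -1.11 to -0.95. That of mmu-miR-146a-5p ran from -0.71 to -0.40 and that of mmu-miR-146b-5p from 0.23 to 0.505. The share of mmu-miR-146a-5p differed by 13.6 to 15.1 percentage points, and the total of all calls ran from 51 to 74. Calls among the Toll-like receptor and NF-κB miRNAs ran from 1 (without M0-exo replicate 3) to 5 (without M0-exo replicate 2), were 2 (1 higher, 1 lower) with the offset and were 3 (1 higher, 2 lower) with library totals. Calls among the IL-4 miRNAs ran from 0 to 1 (without M2-exo replicate 3) and were 1 with the offset. Depth limits mmu-miR-146a-5p most, with 33 counts in M2-exo replicate 1.

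Deviations of libraries with the same replicate number correlated at -0.043, 0.016 and -0.046 across 241 names, and the numbers were not taken to pair them. With the replicate block 56 names passed, and the log2 fold changes were -1.03 for mmu-miR-155-5p, -0.57 for mmu-miR-146a-5p and 0.37 for mmu-miR-146b-5p, with 4 and 0 calls in the 2 lists.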
